A study of Mus musculus with 6 samples.

Results

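Described here are 10 genes that encode writers, readers and recruiters of histone H3 lysine 9 methylation, a mark of silent chromatin. They were matched by gene symbol to a fixed list, drawn up with earlier results of these data known and by a rule that uses no measured value, and make up 10 of the 54532 genes in the count table. The list held the methyltransferase genes Suv39h1, Suv39h2, Ehmt1, Ehmt2 and Setdb2, the corepressor gene Trim28, the heterochromatin protein 1 (HP1) genes Cbx1, Cbx3 and Cbx5, and Adnp. All 10 passed the filter on low counts and were among the 16731 genes tested. Setdb1, a further methyltransferase gene, was not in the list. Coordinates of genes are those of the GENCODE M21 annotation of GRCm38.

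To see which transcripts change when the histone mark reader MPP8 is lost, whole brains of C57BL/6J mice were profiled at postnatal day 14 by sequencing of polyA RNA, with 1 library from each of 3 mice per genotype. The 3 controls had 1 floxed and 1 intact allele of Mphosph8 (Mphosph8fl/+ Nestin-Cre+), and in the 3 mutants both alleles were floxed (Mphosph8fl/fl Nestin-Cre+, labelled Mphosph8∆n). All 6 mice therefore carried the Nestin-Cre transgene and at least 1 floxed allele per the labels, whereas the study's text describes control animals through Nestin-Cre only. Nestin-Cre acts in neural progenitors and their descendants, so microglia and vessel cells in a whole brain keep the gene. By the labels, the controls are thus heterozygous for the deletion in cells where Cre acts. The comparison is then of deletion of both alleles against deletion of 1, and no library here has Mphosph8 intact on both alleles in those cells.

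Methyl groups on lysine 9 of histone H3 are placed by SET domain enzymes. SUV39H1 and SUV39H2 trimethylate heterochromatin next to centromeres, whereas the paired enzymes GLP (Ehmt1) and G9a (Ehmt2) place lower methylation states in gene-rich chromatin and GLP is needed for normal cognition. HP1 proteins bind the mark through a chromodomain, and KAP1 (Trim28) brings both methyltransferase activity and HP1 to sites chosen by zinc finger proteins. MPP8 also reads the mark through a chromodomain, as part of the HUSH complex, which silences integrated and repeated sequence.

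The 6 libraries held 12956880 to 15223424 counts. Mphosph8, read first as a check of the labels, stood at 55.8, 48.6 and 70.7 CPM (counts scaled to the library size) in the controls and at 33.1, 27.2 and 26.5 CPM in the mutants. The groups did not overlap, and edgeR gave a log2 fold change of -1.02 ± 0.12 (SE) at an adjusted p of 0.000157. Counts were taken over the whole gene, which includes the exons outside the floxed exon 4. Control replicate 3 stood apart in sex-linked genes, with 27 counts of Xist and 3641 counts of 4 Y-linked genes together, against 11130 to 17697 and 0 to 1 in the other 5 libraries. The same library had the highest summed level of 8 markers of proliferating cells, which ran from 73.8 to 111 CPM in the controls. In the mutants that sum was 78.3 to 82.9 CPM. The part of these differences of control replicate 3 in the results below was not tested. The summed levels of marker genes of neurons, astrocytes and microglia overlapped between the groups. The summed level of 8 oligodendrocyte markers was 21275 to 25577 CPM in the controls and 16951 to 19598 CPM in the mutants, with 8 of 8 fold changes negative, as were 8764 of the 16731 over all genes tested. Of the 8 markers, 6 were lower with groups that did not overlap (5.42% of all genes tested), and 2, Mog and Mal, passed the adjusted threshold (0.628% of all genes tested). In bulk tissue, fewer cells of a type and less RNA per cell cannot be told apart, and the part of this marker difference in the results below was not tested. Of 6 genes listed as markers of other tissues, the 5 that mark liver, pancreas, heart and skeletal muscle each stood under 1 CPM. The remaining gene, the haemoglobin gene Hbb-bs, stood at 240, 260 and 302 CPM in the controls and at 283, 229 and 262 CPM in the mutants.

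No transcript of the 10 changed past the threshold in the mutant brains. By edgeR's quasi-likelihood test, 0 of the 10 had an adjusted p under 0.05, where 0.628% of all genes tested did. The same count was 0 with DESeq2, with limma-voom and in every other alternative fit. At an unadjusted p under 0.05, 1 of the 10, Ehmt2, was higher in the mutants, against 4.09% of all genes tested, and 0 were lower, against 2.41%. The genes Ehmt2, Suv39h1 and Suv39h2 had every mutant library above every control library (3 of the 10, against 6.23% of all genes tested), and 0 had the reverse order (against 5.42%). Of the 10 fold changes 5 were positive and 5 negative, with a median log2 fold change of 0.01, beside -0.01 over all genes tested.

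The data also set limits to what a change between these genotypes could have been. The 95% interval of the fold change lay within 1.3-fold in either direction for 7 of the 10 genes, within 1.5-fold for 8 and within 2-fold for all 10. Suv39h2, Setdb2 and Adnp, the 3 with the fewest counts, had the wide intervals.

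**Figure D1:**
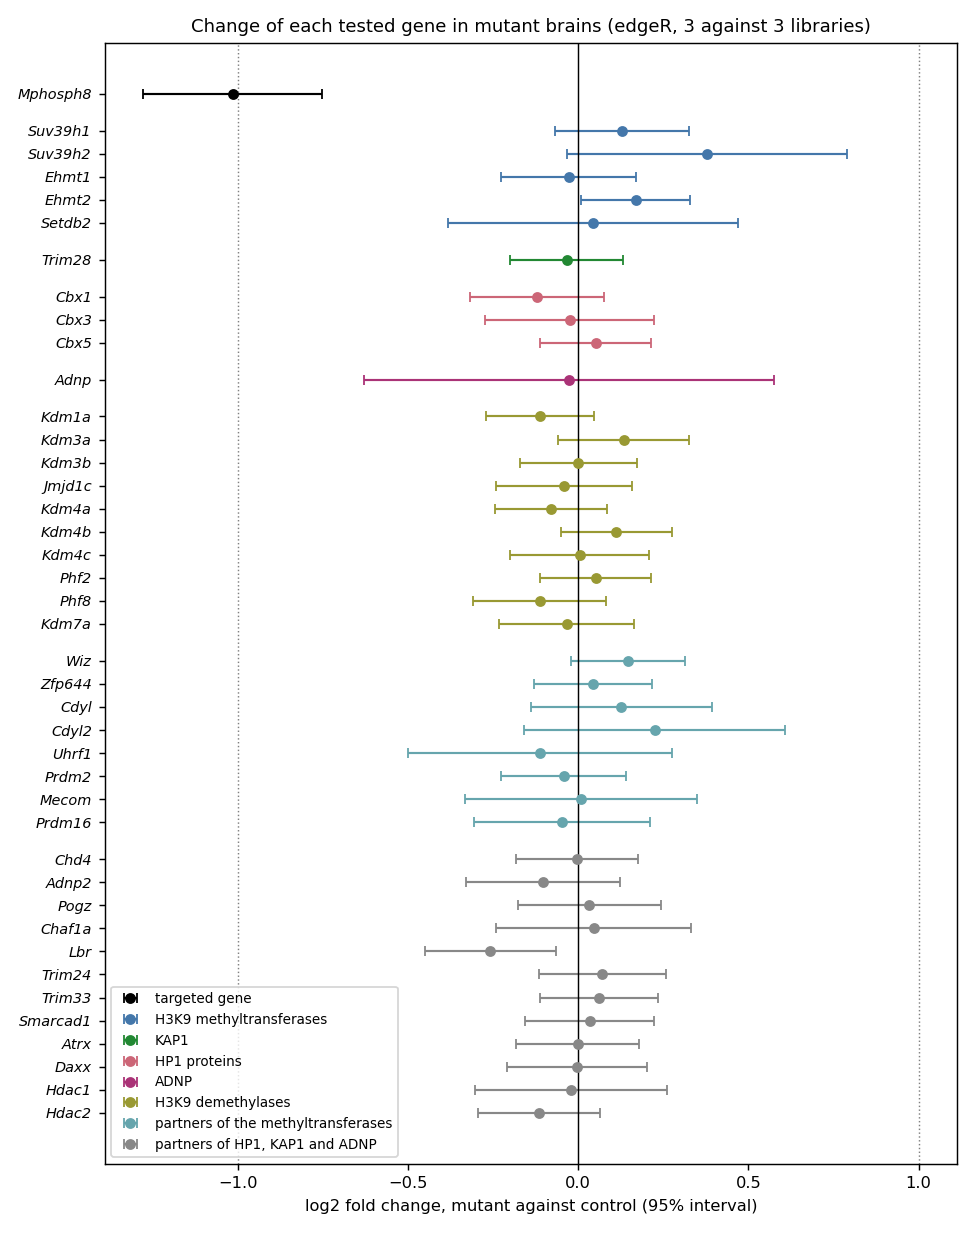
Log2 fold change of mutant against control brains with its 95% interval (edgeR, 3 against 3 libraries) for Mphosph8, the 10 genes and 30 tested genes of 3 related lists, coloured by role, with dotted lines at a 2-fold change. Mphosph8 lies alone at -1.02, and among the 10 genes only the interval of Ehmt2, from 0.01 to 0.33, misses 0.

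The SUV39H enzymes, which trimethylate heterochromatin beside centromeres, were both somewhat higher in each mutant library than in any control library, by amounts within the error of the test. Suv39h1 (ENSMUSG00000039231, chromosome X, 8061171 to 8074760) stood at 23.5, 24.0 and 23.9 CPM in the controls and at 26.5, 24.8 and 26.9 CPM in the mutants. The controls had a coefficient of variation of 1.05%, and the lowest mutant library was just above them. Between the groups the log2 fold change was 0.13 ± 0.09 (SE; interval -0.07 to 0.33, edgeR adjusted p 0.912). Suv39h1 lies on the X chromosome, and control replicate 3, the library with Y-linked counts, fell between the other controls. Suv39h2 (ENSMUSG00000026646, chromosome 2, 3455815 to 3475031) stood at 3.79, 3.08 and 3.44 CPM in the controls and at 3.84, 5.08 and 4.51 CPM in the mutants. Mutant replicate 1 was close to control replicate 1. Mutant replicates 2 and 3 were above it by few counts, at 68 and 62 against 57. This gene had the largest fold change of the 10, a log2 value of 0.38 ± 0.20 (SE; interval -0.03 to 0.79, edgeR adjusted p 0.804). Those levels rested on 42 to 68 counts a library. Suv39h2 passed an unadjusted p of 0.05 in 1 alternative, without mutant replicate 1, at a log2 fold change of 0.47 (edgeR adjusted p 0.467).

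G9a and GLP act as a pair, and only the G9a transcript differed between the groups before adjustment. Ehmt2 (G9a; ENSMUSG00000013787, chromosome 17, 34898469 to 34914052) stood at 188, 189 and 183 CPM in the controls and at 212, 201 and 216 CPM in the mutants. The lowest mutant library was above the highest control library. Its log2 fold change of 0.17 ± 0.08 (SE) was an increase of 12.4% with an interval of 0.573% to 25.6%, at an edgeR adjusted p of 0.726. The direction was kept in all 15 alternatives, at log2 fold changes of 0.15 to 0.20 and adjusted p from 0.541 to 1.00. The unadjusted p, 0.0404 by edgeR over all libraries, ranged from 0.0217 to 0.129. It was above 0.05 without any filter on low counts (0.0591), with the replicate number as a block (0.0543), and on leaving out control replicate 1, 2 or 3 (0.0579, 0.0933 and 0.0998) or mutant replicate 3 (0.129). Ehmt1 (GLP; ENSMUSG00000036893, chromosome 2, 24789928 to 24919614) stood at 43.2, 48.4 and 50.01 CPM in the controls and at 41.7, 46.7 and 50.5 CPM in the mutants. The groups overlapped along their whole range. GLP thus had a log2 fold change of -0.03 ± 0.09 (SE; interval -0.23 to 0.17, edgeR adjusted p 0.988).

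Setdb2 (ENSMUSG00000071350, chromosome 14, 59402009 to 59440884), a relative of Setdb1 whose product is less well studied than the others, was a rare transcript in these brains. It stood at 3.79, 4.25 and 6.41 CPM in the controls and at 5.04, 4.93 and 4.94 CPM in the mutants. The mutants were nearly equal and lay inside the range of the controls, of which control replicate 3 was the highest. The estimate was a log2 fold change of 0.04 ± 0.20 (SE; interval -0.38 to 0.47, edgeR adjusted p 0.993). It was 0.31 when control replicate 3 was left out and -0.11 when control replicate 1 was (edgeR adjusted p 0.922 and 0.989). Setdb2 shares chromosome 14 with Mphosph8, from which it lies 2.705 Mb away.

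**Figure D2:**
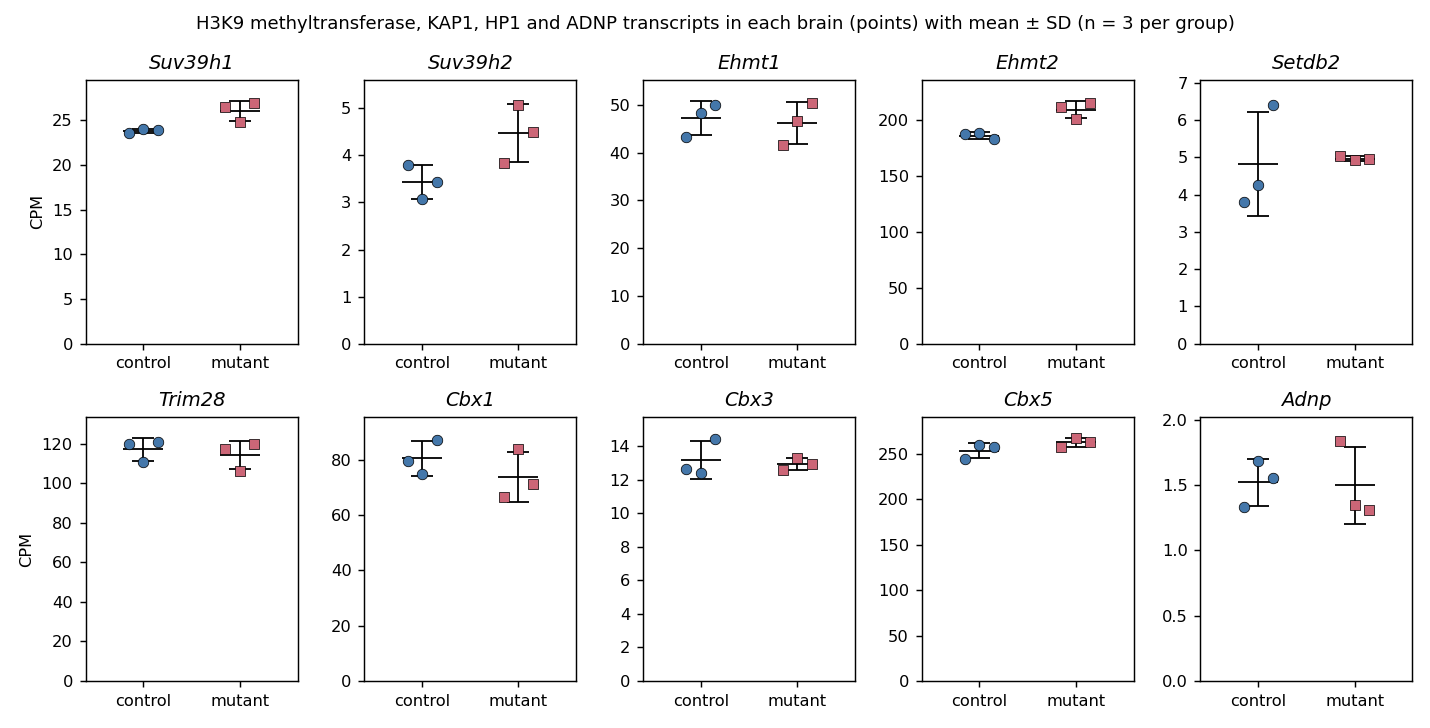
Level of each of the 10 transcripts in CPM (vertical axes from 0, scaled per gene) in each control brain (blue circles) and mutant brain (red squares), with horizontal lines at the mean and bars of ± SD (n = 3 per group). The mutant points lie above all control points for Suv39h1, Suv39h2 and Ehmt2 and are mixed with them for the other genes, and the controls of Setdb2 spread from 3.79 to 6.41 CPM.

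KAP1, encoded by Trim28, is the corepressor through which KRAB zinc finger proteins silence their targets. Trim28 (ENSMUSG00000005566, chromosome 7, 12999114 to 13031035) stood at 120, 111 and 121 CPM in the controls and at 117, 106 and 120 CPM in the mutants. The groups overlapped, and replicate 2 was the lowest library in each. In log2 terms the change was -0.03 ± 0.08 (SE; interval -0.20 to 0.13, edgeR adjusted p 0.985), and a rise of more than 9.65% lay outside the interval.

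The HP1 proteins read the methylated lysine and compact the chromatin that carries it. Of their genes, 0 of 3 changed past the threshold. Cbx5 (HP1 alpha; ENSMUSG00000009575, chromosome 15, 103191544 to 103239816), the transcript with the most counts of the 10, stood at 244, 260 and 257 CPM in the controls and at 258, 268 and 263 CPM in the mutants. The mutants lay in or just above the upper part of the control range. The change was 0.05 ± 0.08 in log2 (SE; interval -0.11 to 0.21, edgeR adjusted p 0.975). Cbx1 (HP1 beta; ENSMUSG00000018666, chromosome 11, 96789127 to 96808640) stood at 79.5, 74.6 and 87.2 CPM in the controls and at 66.5, 84.0 and 71.2 CPM in the mutants. Mutant replicates 1 and 3 were below all controls and mutant replicate 2 was within them. Its log2 fold change of -0.12 ± 0.09 (SE; interval -0.32 to 0.07, edgeR adjusted p 0.917) was the most negative of the 10. When mutant replicate 2 was left out it was -0.23, with an unadjusted p under 0.05 (edgeR adjusted p 0.572). Cbx3 (HP1 gamma; ENSMUSG00000029836, chromosome 6, 51470360 to 51483704), which is also found in the bodies of active genes, stood at 12.6, 12.4 and 14.4 CPM in the controls and at 12.6, 13.3 and 12.9 CPM in the mutants. The groups overlapped, at a log2 fold change of -0.03 ± 0.12 (SE; interval -0.27 to 0.22, edgeR adjusted p 0.993).

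ADNP is a homeodomain and zinc finger protein that binds DNA with HP1 and the remodeller CHD4, and its gene is a frequent site of mutation in autism. Adnp (ENSMUSG00000051149, chromosome 2, 168180986 to 168207112) had 20, 23 and 23 counts in the controls and 23, 18 and 18 counts in the mutants. That made 1.33, 1.68 and 1.55 CPM against 1.84, 1.34 and 1.31 CPM, and the groups overlapped. Its interval, from -0.63 to 0.58 around a log2 fold change of -0.03 ± 0.29 (SE; edgeR adjusted p 0.996), was the widest of the 10. Of its 5350 exonic bases, 4393 are also annotated as exons of Gm20716 on the same strand, which had 0 counts in all 6 libraries. The sources used here do not say how reads in bases of both genes were counted. The level of Adnp is therefore uncertain, and may rest on the other 957 bases.

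Compared per length, the 10 transcripts covered a wide range of levels, with G9a, KAP1 and the HP1 genes Cbx5 and Cbx1 above the rest. On the scale of CPM per kb of merged exons, Ehmt2 was the highest in the controls at 33.98 ± 0.546 (SD, n = 3). Trim28 at 28.2 ± 1.36 and Cbx5 at 28.2 ± 0.905 followed, and their ranges overlapped. Cbx1 came next at 18.8 ± 1.48, and below a wide gap came Ehmt1 at 5.82 ± 0.438, Suv39h1 at 4.52 ± 0.0476 and Cbx3 at 2.19 ± 0.188. The lowest were Setdb2 at 1.19 ± 0.346, Suv39h2 at 0.779 ± 0.0810 and Adnp at 0.285 ± 0.0335. On this scale the place of Adnp is uncertain, since 4393 of its 5350 exonic bases are shared with Gm20716. Apart from Trim28 and Cbx5, the ranges of neighbours in this order did not overlap. The mutants gave the same order except that Cbx5 and Trim28, again overlapping, changed places.

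The choice of length moved some of these places. With the longest transcript as the length, Cbx1 rose to 33.8 CPM per kb in the controls, above Cbx5 at 28.8 and overlapping Trim28 at 36.1, and Ehmt1 and Suv39h1 overlapped at 7.93 and 7.64. With only exonic bases that no other gene holds on the same strand, a scale added after the data were seen, Adnp rose from 0.285 to 1.59 CPM per kb and overlapped Setdb2.

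**Figure D3:**
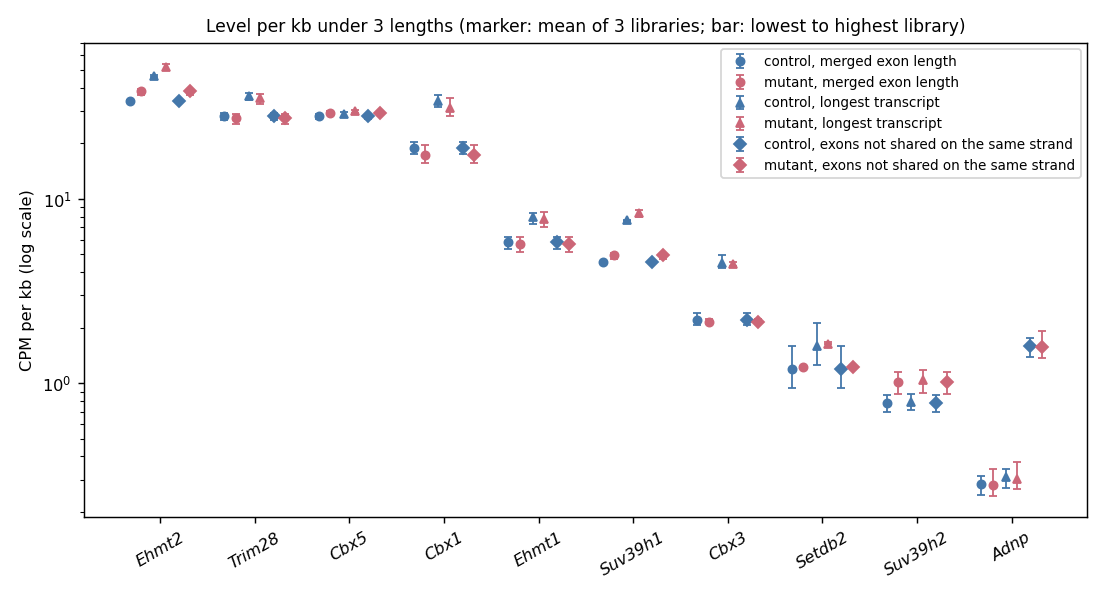
Level of each transcript in CPM per kb (log scale) in control (blue) and mutant (red) brains, by merged exon length (circles), longest transcript (triangles) and exons not shared on the same strand (diamonds), with markers at the mean of 3 libraries and bars from the lowest to the highest. The 4 genes on the left lie between 17.3 and 52.1 CPM per kb in their means, and Adnp moves from 0.285 to 1.59 in the controls when shared exons are left out.

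The makeup of each protein family was similar in both groups. Of the summed CPM per kb of the HP1 genes, Cbx5 took 55.6 to 59.6% in the controls and 57.6 to 61.8% in the mutants. Cbx1 took 36.1 to 39.7% and 33.6 to 38.1%, and Cbx3 4.27 to 4.69% and 4.30 to 4.53%. With the longest transcript as the length, Cbx1 took more than Cbx5 in the controls (48.2 to 51.8% against 41.2 to 45.3%), so the order of those 2 genes depended on the length used. Ehmt2 took 84.4 to 86.5% of the G9a and GLP sum in the controls and 86.3 to 88.3% in the mutants. Suv39h1 took 83.9 to 86.7% of the SUV39H sum in the controls and 80.3 to 85.2% in the mutants. The control and mutant ranges overlapped for every one of these shares.

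Several of the genes share sequence with other loci, which bounds how far their counts can be read. Cbx3 has many processed copies, and 90% of the words of 50 bases in its coding sequence of 549 bases occur in annotated pseudogenes, against 7.39% over its whole transcripts. The 13 pseudogenes together had 0 to 7 counts in a library. Of the words of Ehmt2, 0.217% occur in 9 other genes, none a pseudogene, which together had 3025 to 3390 counts in a library. For Cbx5 0.0221% of the words occur in 2 other genes with 324 to 418 counts together, and for the other 7 genes no word occurred in a gene searched. Genes that overlap a member on the same strand were left out of this search. It therefore does not cover the 4393 exonic bases that Adnp shares with Gm20716, nor the 21 that Ehmt1 shares with Gm37139. Suv39h1 has 767 of 5270 exonic bases opposite the antisense gene Gm14820, which had 1 to 7 counts. Suv39h2 has 357 of 4410 exonic bases opposite Dclre1c, which had 135 to 222 counts, more than Suv39h2 itself. No source used here gives the strand setting of the counting, so reads of Suv39h2 and Dclre1c cannot be told apart in those bases.

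The promoters of the genes were described by their letters. Cbx3, Cbx5, Ehmt2 and Suv39h1 have a second RefSeq start, and the one nearest the GENCODE start was used. In the 250 bases before the RefSeq start (build GRCm38.p6), the GC content of the 10 was 49.6 to 73.2% with a median of 64.8%, beside 52.4% over 32851 windows of all genes. The ratio of observed to expected CpG was 0.586 to 1.04 with a median of 0.873, beside 0.373 over all windows. The GC box GGGCGG, the letters bound by SP1, was present on either strand in 9 of the 10 windows, all but that of Setdb2, and in 32.7% of all windows. In the second windows, not used here, Cbx3 had 0 boxes, Cbx5 and Suv39h1 1 each and Ehmt2 4. Their CpG ratios were 0.879 for Cbx3, 0.428 for Cbx5, 0.827 for Ehmt2 and 0.996 for Suv39h1. In the windows used these were 0.873, 1.02, 0.640 and 0.668. The letters CCAAT occurred in 3 of the 10 and in 33.8% of all, TATAAA in 0 of the 10 and in 12.4% of all, CCGGAAG (an ETS factor motif) in 0 of the 10 and in 6.91% of all, and TGCGCA, the core of the NRF1 motif, in 3 of the 10 and in 6.43% of all. For 9 genes the RefSeq start used lay within 256 bases of the GENCODE start, and for Trim28 it lay 25038 bases away. A match in letters describes the sequence and does not show that a factor was bound.

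The promoters of the 3 genes whose groups did not overlap are shown, 5′ to 3′ on the strand of the gene and without annotated exons of any gene, with the GC boxes in capitals (GGGCGG or its reverse complement). They lie at chr17:34898266-34898468 (plus strand) for Ehmt2, chrX:8074761-8075010 (minus strand) for Suv39h1 and chr2:3475032-3475236 (minus strand) for Suv39h2, all by RefSeq on GRCm38.p6.
Ehmt2: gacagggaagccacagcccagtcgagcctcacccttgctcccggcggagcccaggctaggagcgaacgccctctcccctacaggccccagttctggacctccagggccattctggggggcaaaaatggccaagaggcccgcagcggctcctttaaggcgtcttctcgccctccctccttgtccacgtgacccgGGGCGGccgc
Suv39h1: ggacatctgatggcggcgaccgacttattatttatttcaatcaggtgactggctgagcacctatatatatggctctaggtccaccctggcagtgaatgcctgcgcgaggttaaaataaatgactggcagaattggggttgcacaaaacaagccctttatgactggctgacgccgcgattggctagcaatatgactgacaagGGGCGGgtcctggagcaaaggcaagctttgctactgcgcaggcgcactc
Suv39h2: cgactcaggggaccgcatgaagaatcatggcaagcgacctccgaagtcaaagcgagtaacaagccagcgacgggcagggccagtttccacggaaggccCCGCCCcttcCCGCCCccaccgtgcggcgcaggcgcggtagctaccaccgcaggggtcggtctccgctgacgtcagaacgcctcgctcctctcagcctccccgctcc
The whole windows of 250 bases hold 2 boxes for Ehmt2, 1 for Suv39h1 and 3 for Suv39h2, of which 1 of Ehmt2 and 1 of Suv39h2 fall in the annotated exons that are not shown.

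Of the 10 genes, 5 start within 1000 bases of a protein-coding gene on the opposite strand, and the transcripts of these neighbours were read to see how each pair stood. Ehmt2 starts 204 bases from C2, a complement gene at 1.70 ± 0.195 CPM in the controls and 2.02 ± 0.212 CPM in the mutants (SD, n = 3; log2 fold change 0.25, edgeR adjusted p 0.949). Setdb2 starts 88 bases from Cab39l, which encodes a scaffold of the LKB1 kinase and had a log2 fold change of -0.05 (edgeR adjusted p 0.980). Cbx3 starts 466 bases from Hnrnpa2b1 and Cbx5 starts 616 bases from Hnrnpa1, both of which encode abundant RNA-binding proteins. Hnrnpa2b1 had a log2 fold change of -0.15 ± 0.11 (SE; edgeR adjusted p 0.912). Hnrnpa1 stood at 103, 96.9 and 122 CPM in the controls and at 71.3, 101 and 96.0 CPM in the mutants. Mutant replicate 1 was the lowest and the groups overlapped, at a log2 fold change of -0.26 ± 0.11 (SE; interval -0.50 to -0.02, edgeR adjusted p 0.689). Its unadjusted p by edgeR was 0.0340, and it was the 1 of 4 tested neighbours under 0.05 and lower (against 2.41% of all genes tested). With 1 library left out the value ran from -0.36 to -0.12, the latter without mutant replicate 1. The upstream annotated start of Trim28 lies 922 bases from Slc27a5, a gene of bile acid metabolism that had 2 to 10 counts in a library and was not tested.

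Genes listed as removing the mark or as working with the 10 gave the same count. Of 31 listed genes, 30 were tested, 0 had an adjusted p under 0.05 by edgeR, and 1 was lower at an unadjusted p under 0.05 (against 2.41% of all genes tested) and 0 were higher (against 4.09%). The fold changes were positive in 15 and negative in 15, with a median log2 fold change of -0.000871. Every mutant lay above every control for 2 of the 30 (Kdm4b and Cdyl, against 6.23% of all genes tested) and below for 2 (Kdm1a and Lbr, against 5.42%), which are shares near the background. Of these, Kdm4b, Cdyl and Kdm1a were named after their values were seen. Of 11 demethylase genes 10 were tested, with a median log2 fold change of -0.02 and a range from -0.11 for Phf8, which demethylates histone H3 and is mutated in an inherited intellectual disability, to 0.13 for Kdm3a. Kdm4d, at 0.436 to 0.800 CPM, was not tested. The 8 genes listed as partners of the methyltransferases had a median of 0.03. They ran from -0.11 for Uhrf1, which reads the mark and hemimethylated DNA, to 0.22 for Cdyl2, a chromodomain protein.

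Of the 12 partners of HP1, KAP1 and ADNP, the median log2 fold change was -0.00269 and the highest was Trim24, a relative of Trim28, at 0.07. Lbr, the lamin B receptor that binds HP1 at the inner nuclear membrane, was the gene with an unadjusted p under 0.05. It stood at 30.3, 29.0 and 31.4 CPM in the controls and at 25.5, 25.2 and 25.2 CPM in the mutants. Every mutant was below every control, and the mutants were nearly equal. As a log2 fold change this was -0.26 ± 0.09 (SE; interval -0.45 to -0.07, edgeR adjusted p 0.451). It ran from -0.29 to -0.23 over the alternatives, with adjusted p from 0.357 to 1.00. The oligodendrocyte markers were lower in the same libraries, and their part in the value of Lbr was not tested.

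**Figure D4:**
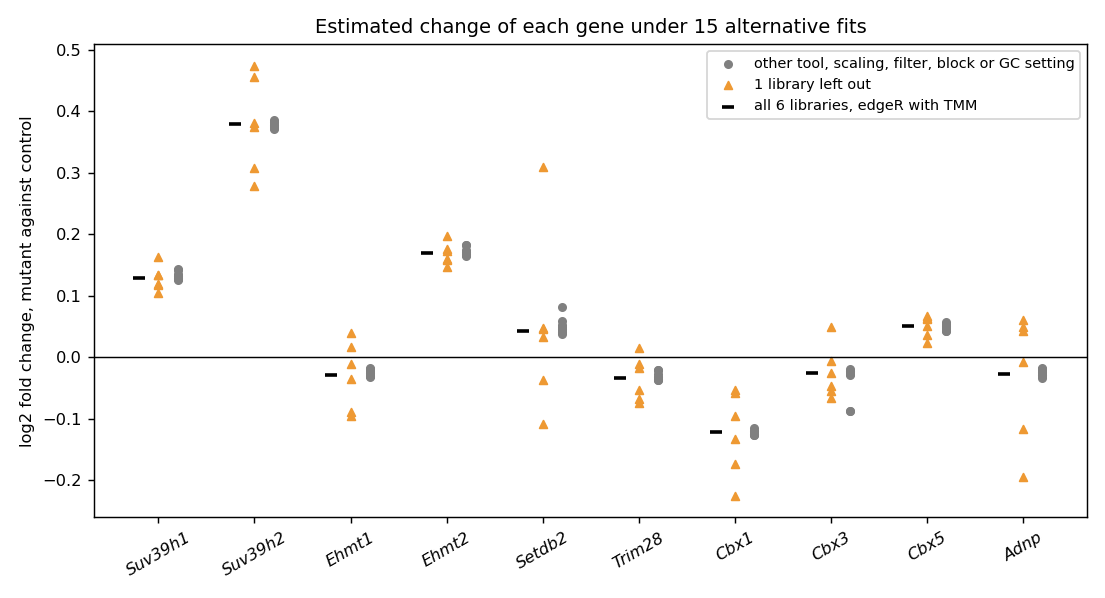
Log2 fold change of each of the 10 transcripts with all 6 libraries (black dash), with 1 library left out (orange triangles, 6 fits) and under other tools, scalings, filters, blocking or GC settings (grey circles, 9 fits). For each gene the farthest shift came from leaving out a library, and Suv39h1, Suv39h2, Ehmt2, Cbx1 and Cbx5 kept their sign in all 15 alternatives.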

How the data were processed

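Per the methods and the submitters' processing notes, the authors sequenced single reads of 50 bases from polyA-enriched libraries, trimmed them with Trim Galore 0.5.0, removed abundant sequence with Bowtie2 2.3.4.1, aligned the rest to GRCm38 with STAR and counted reads per gene with featureCounts (Subread 1.6.2). The deposited values are raw counts for 54532 genes in each library, at 12956880 to 15223424 counts a library, and no normalised value was used.

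Symbols, exons and biotypes came from GENCODE M21 (54495 genes matched). Genes were tested with edgeR 4.0.16 in R 4.3.3 (filterByExpr, TMM, quasi-likelihood F test, genotype as the sole term), with Benjamini-Hochberg adjustment over 16731 genes. Standard errors came from the F statistic and 95% intervals from the t quantile at the total degrees of freedom. CPM used the effective library size. Replicates are separate mice, and p-values set the difference between genotypes against the variation among the libraries of a genotype (3 and 3). That variation was estimated per gene and moderated towards a trend over all genes tested. Within groups, every pair of libraries differed beyond sampling noise (chi-square per degree of freedom 3.67 to 13.4). The fit was tested on simulated data.

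The members and lists were chosen with earlier results of these data known. Text names all 10 members, Mphosph8, divergent neighbours and, of each related list, the extremes and genes with an unadjusted p under 0.05. Kdm4b, Kdm1a and Cdyl were named outside this rule, after their values were seen. Words of 50 bases were searched in the annotated transcripts of other genes, leaving out genes with exons that overlap on the same strand. The alternatives tried were DESeq2 1.42.0, limma-voom (limma 3.58.1), RLE size factors in edgeR, no filter, a minimum of 1 CPM in 3 libraries, the omission of each library in turn, a replicate block, a GC correction (loess span 0.3), both together, and protein-coding genes only.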

Additional observations from a re-analysis of the deposited data

How the results depend on the processing

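The count of called members stayed 0, that of called related genes 0, and Mphosph8 stayed called, at log2 fold changes of -1.13 to -0.85, in all 15 alternatives. No alternative scaling moved the median of all genes by over 0.1. Brains of the same replicate number did not vary together (correlations of deviations of 0.104, -0.0467 and 0.0804). With that number as a block 0 members were called and 0 were at an unadjusted p under 0.05, against 1 without the block. The paper describes the animals as littermates, and litters that do not follow the replicate number were not modelled. Signs turned on leaving out 1 library, with the cause not tested, for these estimates near 0: Ehmt1 ran from -0.10 to 0.040, Setdb2 from -0.11 to 0.31, Trim28 from -0.074 to 0.015, Cbx3 from -0.067 to 0.050, Adnp from -0.20 to 0.061, Cab39l from -0.13 to 0.00278 and Uhrf1 from -0.21 to 0.041. The number of members higher at an unadjusted p under 0.05 ranged from 0 to 2 when a library was left out. Low counts limit Adnp, Setdb2 and Suv39h2, which had 18 to 95 counts a library. For Adnp, the part of depth and that of the exons shared with Gm20716 in these low counts was not tested.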
